A study of Mus musculus with 4 samples.

Results

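Collagen chain genes are described here in stromal cells of the mouse small intestine. All rows of 1 single-cell table were taken whose whole symbol was Col, a number, the letter a and a number, provided that at least 1 cell held a value above 0. Of 18619 genes, 43 had such a symbol. Col2a1, Col9a1 and Col9a2 were at 0 in every cell, so that 40 chains were kept. By class they were 10 fibrillar chains, 9 chains of basement membranes and 21 other chains. The choice used the symbol and not the level.

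The cells came from adult C57BL/6J mice that carried Pdgfrb-CreERT2, an R26-tdTomato reporter and floxed alleles of Lats1 and Lats2 (Lats1 f/f, Lats2 f/f). Tamoxifen switched on the Cre recombinase, which deletes both kinases and turns on tdTomato in cells that use the Pdgfrb promoter, so that fibroblasts, smooth muscle cells and mural cells were all targeted and cells without Pdgfrb were not. The reporter-positive cells were sorted after the outer layers of the gut wall had been removed and blood, epithelial and endothelial cells depleted. The series has 4 samples in 3 groups, namely 2 wild-type libraries, 1 LATS1/2 KO library at 1 week and 1 at 2 weeks, all of PDGFRb+ intestinal stromal cells of that strain. The LATS1/2 KO library at 1 week was analysed here and the other 3 libraries were not. There was therefore no replicate, no wild-type control and no test, and every comparison below is between cells of 1 library. LATS1 and LATS2 are kinases of the Hippo pathway that hold back the transcriptional co-activators YAP and TAZ. Amotl2, which encodes an adaptor protein of cell junctions, is a well-known target of YAP and TAZ and is used below as 1 readout linked to them.

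Collagens are the main structural proteins of connective tissue, built from chains that wind around each other into a helix. Fibrillar collagens such as types I, III and V form the cable-like fibrils that bear load. Type IV collagen forms the sheet-like network of basement membranes, while type VI forms beaded filaments near cells and the fibril-associated collagens with interrupted triple helices (FACIT) decorate the surface of fibrils. In the gut wall, fibroblasts make most of this matrix, and the core of each villus and the layer under the epithelium differ in what they hold.

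In all, 4108 cells gave 46054627 UMIs (unique molecular identifiers, tags that count single transcripts), with a median of 10726 UMIs per cell. No cell barcode occurred more than once. Levels are given as a gene's UMIs per 1000000 UMIs in the pooled cells of a set (CPM). The kit counts transcript 3′ ends, so 1 transcript gives 1 UMI whatever its length, and levels of different genes were compared without dividing by length. Brackets give exact 95% intervals, which cover counting error only and not the variation between mice. A count of 0 was read as allowing up to 3 counts. Table columns were marked M (1983 cells) or F (2125 cells), a split by Xist inside the library. The labels do not tie cells to mice, and the marks are not replicates. Values for both marks are given for some of the levels that differ between them.

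Cells were clustered without the collagen chains, the genes for collagen processing, the YAP/TAZ targets and the sex-linked genes, and were then grouped by marker genes into 6 sets. Clusters 1, 2, 3 and 5, with 3019 cells and a high level of Adamdec1, a secreted protease of villus fibroblasts, are called Adamdec1-high. Clusters 1, 2 and 3 met no marker list, so their place in this set rests on Adamdec1. Cluster 5 also met 4 of 5 markers of the vFB3 villus fibroblasts and was kept in this set for its Adamdec1 level of 4642 CPM, by a rule set after the levels had been seen. The 45 vFB3-like cells met 5 of 5 vFB3 markers. The 693 FB4-like cells met 4 of 4 FB4 markers, among them Ackr4, Cilp and Cd81. Shisa3 and Serpina3n, listed with Adamdec1 as villus fibroblast markers, were higher in the FB4-like cells, at 125 and 235 CPM. They were at 88.6 and 150 CPM in the Adamdec1-high cells, and at 19.5 and 31.0 CPM in cluster 5. The 205 FB5-like cells met 5 of 5 FB5 markers, namely Sox6, Bmp7, Bmp5, Pdgfra and Foxl1. Sox6 was at 293 CPM in them and at most 40.5 CPM in the other sets, while Foxl1, at 12.4 CPM, was higher in the SMC-like (24.9 CPM) and vFB3-like cells (17.2 CPM). The 77 SMC-like cells met 5 of 5 smooth muscle markers, among them Myh11, Actg2 and Cnn1. Cluster 8, with 69 cells, met 6 of 6 mural markers, but none of them was among its 10 leading genes while Ano1, a marker of interstitial cells of Cajal, was. Kit and Etv1, the other markers listed for those cells, were at 5.28 and 21.1 CPM in cluster 8, and Etv1 was at 26.2 CPM in the Adamdec1-high cells. The 6 mural markers summed to 4425 CPM in cluster 8 and to at most 606 CPM in the other sets. Cluster 8 is called by its number.

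Markers of cells outside the stroma were low. Pecam1 (endothelium) was at 0 in every set, Epcam (epithelium) stayed at or under 0.80 CPM and Ptprc (blood cells) at or under 0.636 CPM. The 4 immune markers summed to between 21 CPM in the SMC-like and 58.8 CPM in the FB5-like cells, mostly Lyz2 and Cd74. Their part in the results was not tested. The summed endothelial markers reached 15.8 CPM in cluster 8 and at most 2.40 CPM in the other sets. A limit on free RNA was read from Y-linked transcripts in the 2004 cells that had 5 or more Xist UMIs, and came to 8.64% of a gene's library level. The median depth ran from 6793 UMIs per cell in cluster 8 to 12888 in the vFB3-like cells. Lats1 was between 12 and 21 CPM and Lats2 between 38.0 and 80.8 CPM over the 6 sets. The 3′ tags counted here may lie outside the deleted exons, so these levels do not check the deletion.

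The SMC-like cells also held Adamdec1 at 4213 CPM, beside 4735 CPM in the Adamdec1-high cells. In comparison, Adamdec1 was at 1898 CPM in the FB5-like cells, 1600 CPM in the vFB3-like cells, 507 CPM in cluster 8 and 206 CPM in the FB4-like cells. The SMC-like and FB5-like sets had the highest median mitochondrial share, 5.98% and 5.76%, beside 4.91% in the Adamdec1-high cells. The part of these features in the collagen levels was not tested.

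The 40 chains took 759302 UMIs, or 1.65% of the library. Fibrillar chains made up 546016 of them, basement membrane chains 56450 and the other chains 156836. The level of single chains spanned a wide range. Col3a1 had 238405 UMIs, the most of all. 29 chains had at least 100 UMIs and are described by name below. The other 11 had between 2 and 84 UMIs, namely Col6a6, Col7a1, Col9a3, Col11a1, Col11a2, Col17a1, Col19a1, Col20a1, Col24a1, Col25a1 and Col26a1. These include the cartilage chains Col9a3, Col11a1 and Col11a2 and the anchoring chains of skin, Col7a1 and Col17a1, and none of those 5 had more than 20 UMIs.

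**Figure D1:**
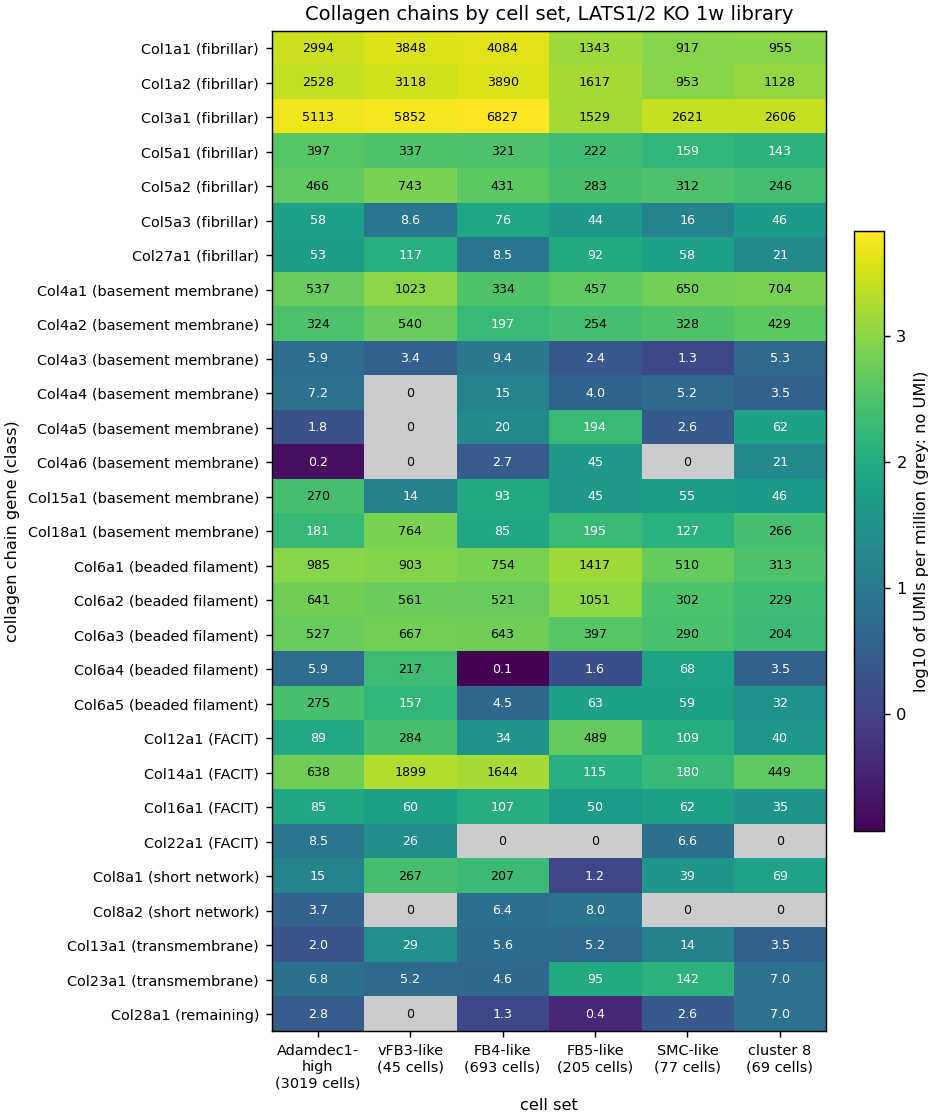
Level of the 29 collagen chains with at least 100 UMIs (rows, grouped by class) in the 6 cell sets (columns), as log10 of CPM, with grey for no UMI. Col3a1, Col1a1 and Col1a2 were the brightest rows in the Adamdec1-high, vFB3-like and FB4-like cells, and Col4a5 and Col4a6 were highest in the FB5-like cells.

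The share of all UMIs taken by collagen chains differed between the sets. It was 2.14% [2.11 to 2.18] in the vFB3-like cells, 2.03% in the FB4-like cells and 1.62% in the Adamdec1-high cells. The order of the first pair turned in cells marked M, with 1.80% in the vFB3-like and 2.10% in the FB4-like cells, beside 2.46% and 1.99% in those marked F. It was 1.0% in the FB5-like cells, 0.808% in cluster 8 and 0.799% in the SMC-like cells. Fibrillar chains took the largest part in every set. They made up 1.56% of UMIs in the FB4-like cells, 1.40% in the vFB3-like cells and 1.16% in the Adamdec1-high cells, and 0.515% in the FB5-like cells, 0.514% in cluster 8 and 0.504% in the SMC-like cells. The vFB3-like value was uneven, with 1.07% in the cells marked M and 1.70% in those marked F, beside 1.59% and 1.54% in the FB4-like cells, so the highest set was another one in F. In single cells the collagen share had a median of 1.5% among the Adamdec1-high cells, with a range from 0.466% to 5.49%. The median was 1.87% in the vFB3-like, 1.86% in the FB4-like, 0.917% in the FB5-like and 0.614% in the SMC-like cells. The FB4-like cells ran from 0.304% to 6.43%. The cells of cluster 8 ran from 0.0835% to 2.71%, with a median of 0.521%. The sets thus overlapped from cell to cell.

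The other classes did not follow the fibrillar order. Basement membrane chains took 0.234% of UMIs in the vFB3-like cells, 0.154% in cluster 8 and 0.133% in the Adamdec1-high cells. The FB4-like cells had the lowest basement membrane share at 0.0757%. FACIT chains took 0.227% in the vFB3-like and 0.179% in the FB4-like cells, beside 0.0821% in the Adamdec1-high cells. Beaded filament chains were highest in the FB5-like cells at 0.293% and lowest in cluster 8 at 0.0781%.

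**Figure D2:**
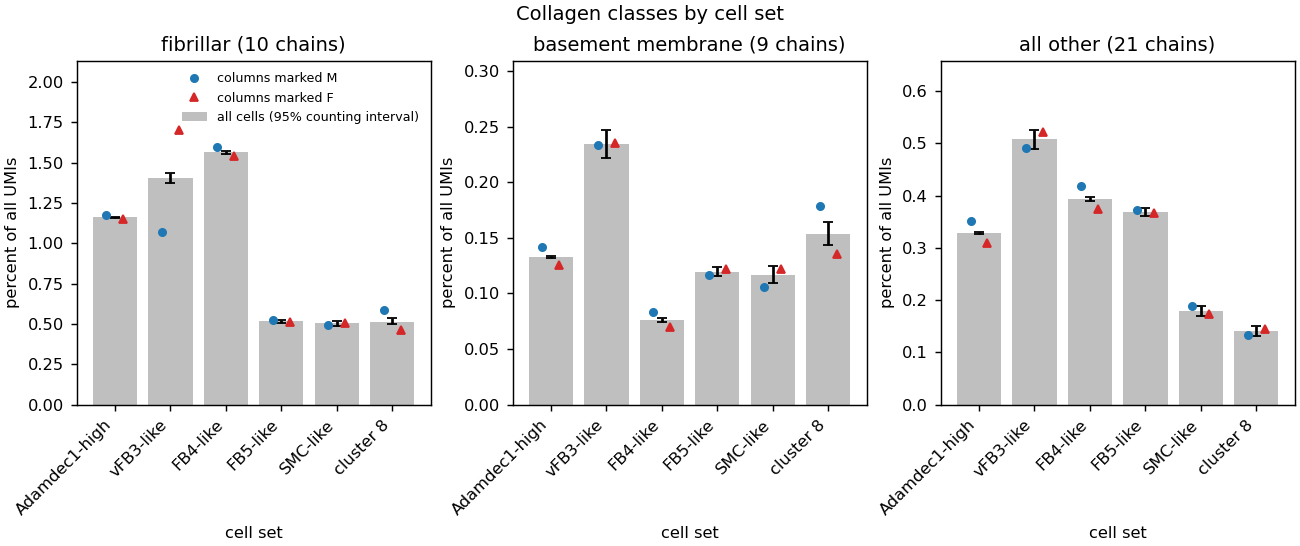
Percent of all UMIs taken by fibrillar, basement membrane and other collagen chains in each of the 6 cell sets, with bars for the whole set, exact 95% intervals as error bars and points for the cells marked M (circles) and F (triangles). The fibrillar bar was highest in the FB4-like cells at 1.56% and the basement membrane bar in the vFB3-like cells at 0.234%.

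Among the fibrillar chains, Col1a1 and Col1a2 encode the chains of type I collagen, the bulk protein of tissue fibrils. Col1a1 was at 4084 CPM in the FB4-like cells, 3848 in the vFB3-like, 2994 in the Adamdec1-high, 1343 in the FB5-like cells, 955 in cluster 8 and 917 in the SMC-like cells. The last 2 values did not differ beyond their counting intervals. The vFB3-like level was again split, with 2353 CPM in cells marked M and 5197 CPM in those marked F, beside 2951 and 3031 CPM in the Adamdec1-high cells. In cells with 8000 to 14000 UMIs it was 2597 CPM, beside 2913 CPM in the Adamdec1-high cells. The order of these 2 sets thus turned in M and at that depth. Over all cells Col1a2 had the same order, from 3890 CPM in the FB4-like to 953 CPM in the SMC-like cells. Its vFB3-like level was 2041 CPM in M, below the Adamdec1-high 2488 CPM, and 4091 CPM in F, above the FB4-like 3849 CPM, so this order held in neither mark. In a molecule of type I collagen the α1 chain outnumbers the α2 chain. Col1a1 UMIs were 1.18 times [1.17 to 1.20] those of Col1a2 in the Adamdec1-high cells and 0.830 times [0.793 to 0.869] in the FB5-like cells.

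Col3a1, whose product forms the thinner fibrils of pliable tissues, was the highest chain in 5 of the 6 sets. It was at 6827 CPM in the FB4-like, 5852 in the vFB3-like and 5113 in the Adamdec1-high cells. It was at 2621 CPM in the SMC-like cells, 2606 CPM in cluster 8 and 1529 CPM in the FB5-like cells. Per Col1a1 UMI there were 2.86 Col3a1 UMIs in the SMC-like cells and 2.73 in cluster 8, beside 1.71 in the Adamdec1-high and 1.14 in the FB5-like cells. The SMC-like cells and cluster 8 were low in both types, and more so in type I than in type III.

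Type V collagen is a minor chain set that sits inside type I fibrils and limits their width. Col5a1 was at 397 CPM in the Adamdec1-high cells and lower in every other set, down to 143 CPM in cluster 8. Col5a2 was highest in the vFB3-like cells at 743 CPM, beside 466 CPM in the Adamdec1-high cells and 246 CPM in cluster 8. Col5a3 took a different course, at 75.9 CPM in the FB4-like, 57.7 in the Adamdec1-high and 8.6 CPM in the vFB3-like cells. The last value rested on 5 UMIs and was 0.149 times [0.0483 to 0.348] the Adamdec1-high level. Col27a1, a fibrillar chain known from cartilage, was at 117 CPM in the vFB3-like and 92.4 CPM in the FB5-like cells. In the FB4-like cells it was at 8.46 CPM, or 0.160 times [0.125 to 0.203] the Adamdec1-high level of 52.8 CPM. Col24a1, with 84 UMIs in all, had 43 of them in the FB5-like cells. It and Col6a6 were under 100 UMIs and are named because they were among the chains called, a choice made after their values had been seen.

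Type IV collagen has 6 chain genes that lie in head-to-head pairs, each pair reading outwards from a shared start region. In mm10, Col4a1 (chr8:11198423-11312826, minus strand) and Col4a2 (chr8:11312805-11449287, plus strand) overlap by 22 bases at their starts. Col4a3 (chr1:82586921-82722059, plus strand) and Col4a4 (chr1:82448423-82586849, minus strand) have 71 bases between them. Col4a5 (chrX:141475385-141689234, plus strand) and Col4a6 (chrX:141165403-141474076, minus strand) have 1308 bases between them. Each pair moved on its own course over the cell sets.

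Col4a1 and Col4a2, the chains of the common basement membrane network, were present in every set. Col4a1 was at 1023 CPM in the vFB3-like cells, 704 CPM in cluster 8, 650 CPM in the SMC-like, 537 CPM in the Adamdec1-high, 457 CPM in the FB5-like and 334 CPM in the FB4-like cells. Col4a2 had the same top and bottom, 540 CPM and 197 CPM. Their ratio was nearly constant, between 1.64 and 1.98 over the 6 sets. Neither chain was past 2-fold of the Adamdec1-high level in any set.

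Col4a3 and Col4a4, known from the basement membrane of the kidney glomerulus, were low. Col4a4 was at 15.4 CPM in the FB4-like cells and 7.24 CPM in the Adamdec1-high cells, a ratio of 2.13 [1.71 to 2.64]. Col4a3 was at 9.39 and 5.91 CPM in these sets. In the other 4 sets Col4a3 had 1 to 6 UMIs and Col4a4 0 to 10 UMIs.

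Col4a5 and Col4a6, known from the basement membranes of smooth muscle and of some epithelia, marked the FB5-like cells. Col4a5 was at 194 CPM [177 to 212] there, 61.6 CPM [42.9 to 85.7] in cluster 8, 20.1 CPM in the FB4-like and 1.76 CPM in the Adamdec1-high cells. Col4a6 was at 44.8 CPM [36.9 to 53.9] in the FB5-like cells, 21.1 CPM [10.9 to 36.9] in cluster 8, 2.67 CPM in the FB4-like and 0.182 CPM in the Adamdec1-high cells. Against the Adamdec1-high cells the FB5-like level was 110 times [84.0 to 148] for Col4a5 and 247 times [110 to 686] for Col4a6, the latter against 6 UMIs. These ratios are not exact, since the Adamdec1-high level of Col4a6 was under its free RNA bound of 0.287 CPM and that of Col4a5 was near its bound of 1.41 CPM. Over the other settings tried, the ratio ran from 18.3 to 560 for Col4a5 and from 33.2 to 1018 for Col4a6. The SMC-like cells held 2 Col4a5 UMIs and no Col4a6 UMI, which allows up to 3.93 CPM. The FB5-like cells also held Acta2 at 3103 CPM and Etv1, which is also known from interstitial cells of Cajal, at 223 CPM. The other markers listed for those cells were low in them, with Kit at 2.00 CPM and Ano1 at 1.20 CPM. Pdgfra, a marker of fibroblasts rather than of smooth muscle, was at 1978 CPM in them. The smooth muscle marker Myh11 was at 218 CPM in the FB5-like cells, beside 15.1 CPM in the Adamdec1-high and 2228 CPM in the SMC-like cells. The other smooth muscle markers listed, Cnn1, Actg2, Actc1 and Lmod1, were at or under 5.20 CPM in the FB5-like cells. The part of any other cell type in these levels was not tested.

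**Figure D3:**
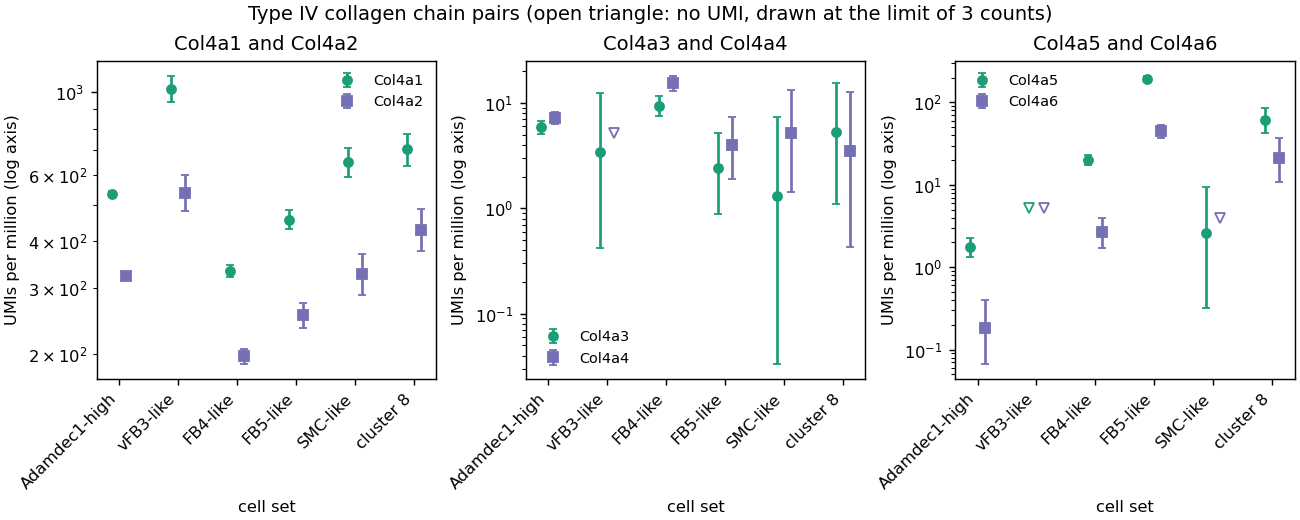
Level in CPM (log axis) of the 3 head-to-head pairs of type IV collagen chains in the 6 cell sets, with exact 95% intervals and an open triangle at the limit of 3 counts where no UMI was seen. Col4a1 and Col4a2 ran nearly parallel, while Col4a5 and Col4a6 peaked in the FB5-like cells at 194 and 44.8 CPM.

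The upstream sequences of Col4a5 and Col4a6 are shown because these 2 genes had the largest ratios of the FB5-like to the Adamdec1-high cells, and those of Col8a1 and Col6a5 because these set the FB4-like cells apart from the Adamdec1-high cells in opposite directions. The sequences are from RefSeq on GRCm38.p6, each read 5′ to 3′ on the strand of its gene and ending just before the start of the gene in GENCODE M21. Capitals mark GGGCGG or its reverse complement CCGCCC, the core of the GC box.
Col4a6 (chrX:141474077-141474326, minus strand): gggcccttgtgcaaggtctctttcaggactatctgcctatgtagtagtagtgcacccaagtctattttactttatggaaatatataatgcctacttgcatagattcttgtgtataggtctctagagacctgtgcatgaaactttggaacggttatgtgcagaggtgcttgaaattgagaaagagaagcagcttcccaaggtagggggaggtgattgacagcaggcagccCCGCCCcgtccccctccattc
Col4a5 (chrX:141475169-141475384, plus strand): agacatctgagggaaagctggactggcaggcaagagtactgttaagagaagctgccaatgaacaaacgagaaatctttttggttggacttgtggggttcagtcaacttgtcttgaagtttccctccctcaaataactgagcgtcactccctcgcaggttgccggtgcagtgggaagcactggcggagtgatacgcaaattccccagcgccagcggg
Col8a1 (chr16:57754738-57754987, minus strand): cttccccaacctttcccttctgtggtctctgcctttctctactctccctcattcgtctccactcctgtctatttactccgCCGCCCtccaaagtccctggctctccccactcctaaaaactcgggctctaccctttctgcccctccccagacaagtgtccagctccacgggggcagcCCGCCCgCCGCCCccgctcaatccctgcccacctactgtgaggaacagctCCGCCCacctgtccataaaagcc
Col6a5 (chr9:105960644-105960893, minus strand): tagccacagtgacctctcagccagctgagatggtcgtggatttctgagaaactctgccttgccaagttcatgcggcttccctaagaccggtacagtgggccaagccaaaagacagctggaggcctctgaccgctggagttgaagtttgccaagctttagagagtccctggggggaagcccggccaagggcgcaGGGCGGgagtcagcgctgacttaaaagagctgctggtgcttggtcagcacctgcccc
Full windows from 250 bases before to 50 bases after the start were at hand for 32 of the 40 chains. A search of both strands found GGGCGG in 21 of the 32 windows (65.6%), beside 38.2% of 27025 genes. The letters GGAATG, the core bound by the TEAD partners of YAP and TAZ, were in 5 of 32 windows (15.6%), beside 16.6% of all genes. TATAAA was in 4 of 32 (12.5%), beside 15.7%. The Col4a5 match to GGGCGG and the Col4a6 match to GGAATG do not lie wholly within the stretches printed above. None of the 3 motifs contains another, and a match is a description of these windows only.

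Col15a1 and Col18a1 encode chains that carry sugar side chains and link basement membranes to the matrix beneath. They changed places between the sets. Col15a1 was at 270 CPM [264 to 276] in the Adamdec1-high cells, 92.5 in the FB4-like, 55.1 in the SMC-like, 45.7 in cluster 8, 44.8 in the FB5-like and 13.8 CPM [5.94 to 27.1] in the vFB3-like cells. Col18a1 was at 764 CPM [694 to 838] in the vFB3-like cells, 266 in cluster 8, 195 in the FB5-like, 181 in the Adamdec1-high, 127 in the SMC-like and 85.4 CPM in the FB4-like cells. There were 1.49 Col15a1 UMIs per Col18a1 UMI in the Adamdec1-high cells and 0.0180 [0.00773 to 0.0358] in the vFB3-like cells. The vFB3-like level of Col15a1 was under its free RNA bound, so it was read as background.

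Type VI collagen is a trimer of Col6a1 and Col6a2 products with a further chain, which can come from Col6a3, Col6a4, Col6a5 or Col6a6. Col6a1 was highest in the FB5-like cells at 1417 CPM, beside 985 CPM in the Adamdec1-high cells and 313 CPM in cluster 8. Col6a2 followed, from 1051 CPM in the FB5-like cells to 229 CPM in cluster 8. Col6a3 did not. It was at 667 CPM in the vFB3-like, 643 in the FB4-like, 527 in the Adamdec1-high and 397 CPM in the FB5-like cells. The vFB3-like and FB4-like values of Col6a3 did not differ beyond their counting intervals. Per Col6a1 UMI there were 0.853 Col6a3 UMIs in the FB4-like and 0.280 in the FB5-like cells.

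The alternative partner chains were set apart more sharply. Col6a4 (chr9:105989454-106096783), Col6a5 (chr9:105856078-105960643) and Col6a6 (chr9:105687809-105828160) lie next to each other on the minus strand of mm10. Col6a5 was at 275 CPM [269 to 280] in the Adamdec1-high cells, 157 in the vFB3-like, 63.2 in the FB5-like, 59.0 in the SMC-like and 31.7 CPM in cluster 8. In the FB4-like cells it was at 4.52 CPM [3.21 to 6.18], or 0.0165 times [0.0117 to 0.0225] the Adamdec1-high level. That level was under the free RNA bound of 17.7 CPM. Col6a4 was at 217 CPM [180 to 258] in the vFB3-like and 68.2 CPM [50.9 to 89.4] in the SMC-like cells, and at 5.94 CPM in the Adamdec1-high cells. Its ratio to the latter was 36.5 [29.0 to 45.9] and 11.5 [8.29 to 15.7]. The FB4-like cells held 1 Col6a4 UMI among 693 cells, a ratio of 0.0195 [0.000492 to 0.110]. Col6a6 had 60 UMIs in all, 57 of them in the Adamdec1-high cells.

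Among the FACIT chains, Col14a1 binds fibrils and is a marker of fibroblasts in many organs. It was at 1899 CPM [1789 to 2014] in the vFB3-like and 1644 CPM [1617 to 1672] in the FB4-like cells, beside 638 in the Adamdec1-high cells, 449 in cluster 8, 180 in the SMC-like (274 in M, 139 in F) and 115 CPM in the FB5-like cells. Col12a1, which is made where tissue is under tension, had another order. It was at 489 CPM [462 to 517] in the FB5-like and 284 CPM in the vFB3-like cells, beside 88.9 in the Adamdec1-high and 33.5 CPM in the FB4-like cells. The FB5-like cells were thus high in Col12a1 and low in Col14a1, and the FB4-like cells the reverse. Col16a1 was between 35.2 CPM in cluster 8 and 107 CPM in the FB4-like cells. Col22a1, known from tissue junctions such as those of muscle and tendon, was at 25.8 CPM in the vFB3-like and 8.48 CPM in the Adamdec1-high cells. It had no UMI in the FB4-like cells, which allows up to 0.348 CPM, and none in the FB5-like cells or cluster 8.

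Col8a1 and Col8a2 encode the short network chains of type VIII, known from vessel walls and the cornea. Col8a1 was at 267 CPM [226 to 312] in the vFB3-like and 207 CPM [198 to 217] in the FB4-like cells. It was at 68.6 CPM in cluster 8, 39.3 CPM in the SMC-like, 15.5 CPM in the Adamdec1-high (9.06 in M, 20.9 in F) and 1.20 CPM in the FB5-like cells. The vFB3-like level was 112 CPM in cells marked M and 406 CPM in those marked F, and 51.1 CPM in the 21 vFB3-like cells with 8000 to 14000 UMIs. Col8a2 stayed between 0 and 8.0 CPM.

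Of the chains that span the cell membrane, Col23a1 was at 142 CPM [116 to 171] in the SMC-like and 95.2 CPM [83.5 to 108] in the FB5-like cells, and at or under 7.04 CPM elsewhere. Its SMC-like level was 299.7 CPM in cells marked M and 73.3 CPM in those marked F. With at most 5% mitochondrial UMIs it was 37.9 CPM in the 8 SMC-like cells left, beside 114 CPM in the FB5-like cells, so the order of the 2 sets turned. Col13a1, which is known for a role at the nerve-muscle junction, was at 29.2 CPM in the vFB3-like, 14.4 CPM in the SMC-like and 2.00 CPM in the Adamdec1-high cells. Col28a1, known from peripheral nerve, had 112 UMIs in all, 94 of them in the Adamdec1-high cells. That set held 73.5% of all cells. By level Col28a1 was highest in cluster 8, at 7.04 CPM on few UMIs.

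Counted over the chains with at least 30 UMIs in a comparison, each set had its own profile against the Adamdec1-high cells. A chain was called past a ratio of 2 in either direction, and the same was done for all genes as the background. In the FB4-like cells 5 of 31 chains were higher (background 4.31%) and 10 of 31 lower (7.07%). The higher ones were Col4a4, Col4a5, Col8a1, Col13a1 and Col14a1. The lower ones included Col6a5, Col6a4, Col27a1, Col12a1, Col15a1 and Col18a1. In the vFB3-like cells 8 of 30 chains were higher (background 8.94%) and 2 lower (10.1%). The higher ones were Col6a4, Col8a1, Col13a1, Col18a1, Col12a1, Col22a1, Col14a1 and Col27a1 and the lower ones Col15a1 and Col5a3. With each cell placed by its own markers and not by cluster (the planned gates), 2 vFB3-like chains were higher and none lower. In the FB5-like cells 7 of 31 were higher (background 6.53%) and 10 lower (11.5%). The higher ones were Col4a6, Col4a5, Col24a1, Col23a1, Col12a1, Col13a1 and Col8a2. The lower ones included Col1a1 at 0.448 times [0.433 to 0.464] and Col3a1 at 0.299 times [0.290 to 0.309]. Under the planned gates, which put 1524 cells in the FB5-like set, Col1a1 was at 1.12 and Col3a1 at 1.03 times. There 8 FB5-like chains were past 2-fold.

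In the SMC-like cells 4 of 30 chains were higher (background 7.71%), namely Col23a1, Col6a4, Col13a1 and Col8a1, and 9 lower (9.38%). Among the lower ones Col1a1 was at 0.306 times and Col1a2 at 0.377 times. These counts were not stable. With only cells of at most 5% mitochondrial UMIs 8 SMC-like cells remained, Adamdec1 was at 8075 CPM in them, 5 chains were past 2-fold, and Col8a1 was at 0.710 times the Adamdec1-high level. In cluster 8, 3 of 30 chains were higher (background 10.8%), namely Col4a5, Col8a1 and Col28a1, the last on 4 UMIs, and 12 lower (10.3%). The share of higher chains in cluster 8 was near the background. The 12 lower chains of cluster 8 took in all 3 common chains of type VI and both of type I. Its Col1a1 level was 284 CPM in the 24 cells with at most 5% mitochondrial UMIs, beside 955 CPM in all 69. The planned gates put 615 cells in cluster 8, and 1 chain was lower there. Under them Col1a1 was at 1.10, Col1a2 at 1.14, Col6a1 at 1.01 and Col6a3 at 1.10 times.

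The median ratio over the chains differed from that of all genes tested in some sets. It was 1.19 in the vFB3-like cells, beside 1.05 over all genes, and 0.812 beside 0.924 in the FB4-like cells. It was 0.640 beside 0.997 in the FB5-like cells, 0.610 beside 0.987 in the SMC-like cells and 0.471 beside 0.977 in cluster 8. Of the 29 named chains, 11 were highest in the vFB3-like cells, 7 in the FB4-like, 6 in the FB5-like, 3 in the Adamdec1-high, 1 in the SMC-like cells and 1 in cluster 8. The 3 that were highest in the Adamdec1-high cells were Col5a1, Col15a1 and Col6a5. This tally used all cells and did not weigh counting error. In cells with 8000 to 14000 UMIs, Col8a1 was at 51.1 CPM in the vFB3-like and 161 CPM in the FB4-like cells.

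Inside the Adamdec1-high set the 4 clusters were more alike. Fibrillar chains took 1.32% of UMIs in cluster 1, 1.04% in cluster 2, 1.18% in cluster 3 and 0.930% in cluster 5. Basement membrane chains took 0.126%, 0.143%, 0.144% and 0.109% in the same order. FACIT chains took 0.0978% in cluster 1 and 0.110% in cluster 5, beside 0.0608% in cluster 2 and 0.0662% in cluster 3. Single chains differed more. Col15a1 was at 206, 345, 365 and 124 CPM in clusters 1, 2, 3 and 5 and Col6a3 at 421, 589, 738 and 324 CPM, with clusters 2 and 3 on the high side. Col14a1 was at 763, 449, 491 and 934 CPM, with clusters 2 and 3 on the low side. Col5a3 was at 43.2, 64.3, 94.4 and 20.2 CPM. Over 2964 Adamdec1-high cells thinned to 5000 UMIs, the single-cell levels of Col1a1 and Col1a2 had a Pearson correlation of 0.678, while that of Col4a1 and Col4a2 was 0.213. These cells share 1 library, and sparse counts lower a correlation.

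Whether collagen chains went with a YAP/TAZ target was asked through Amotl2 (chr9:102716672-102733418, plus strand). Amotl2 was at 208 CPM in cluster 8, 206 in the vFB3-like, 160 in the FB4-like, 149 in the FB5-like, 149 in the Adamdec1-high and 43.3 CPM in the SMC-like cells. Within the Adamdec1-high set it was at 260 CPM in cluster 1, 160 in cluster 5, 75 in cluster 3 and 51.0 CPM in cluster 2. The other targets did not all share this order. Cyr61 was at 661 CPM in cluster 1 but at 123 CPM in cluster 5, below cluster 3 at 358 CPM and cluster 2 at 141 CPM. Axl was lowest in cluster 5 at 94.4 CPM and highest in cluster 3 at 237 CPM. Ctgf, Ajuba and Lats2 were higher in clusters 1 and 5 than in clusters 2 and 3, as Amotl2 was. In clusters 1, 2, 3 and 5, Ctgf was at 83.8, 49.5, 19.4 and 114 CPM. In the same order Ajuba was at 14.1, 3.70, 4.23 and 17.8 CPM and Lats2 at 74.0, 35.9, 40.9 and 68.7 CPM. Ankrd1 had no UMI in these clusters. The 7 targets summed to 1268, 496, 735 and 578 CPM in clusters 1, 2, 3 and 5. The comparisons below are thus by Amotl2 and not by YAP/TAZ activity as a whole. Each cell was thinned to 5000 UMIs and placed by its remaining Amotl2 UMIs, and levels were taken from all UMIs of the cells in a bin. In the Adamdec1-high set 1762 cells had 0, 675 had 1, 327 had 2 and 200 had 3 or more such UMIs, with 55 shallower cells left out. In the FB4-like set the numbers were 411, 139, 83 and 49, with 11 left out.

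The bins were not alike in other ways. In the Adamdec1-high set cluster 1 made up 19.4% of the cells with 0 Amotl2 UMIs and 82.5% of those with 3 or more. The share of cells marked F was 45.8% in the first and 66.0% in the last bin. In the FB4-like set these shares were 49.6% and 65.3%, and the median depth was 11878 UMIs in the first and 14521 in the last bin. The part of these differences was not tested. Values for each mark, and some inside clusters, are given below.

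Between the outer Amotl2 bins, the share of fibrillar collagen was higher in the upper bin in both sets. In the FB4-like cells fibrillar chains took 1.43% of UMIs in the bin with 0 and 2.07% in the bin with 3 or more Amotl2 UMIs, a ratio of 1.44 [1.42 to 1.47]. It was 1.48 in cells marked M and 1.44 in those marked F. Col1a1 was at 3667, 3950, 5118 and 5705 CPM from the lowest to the highest bin. Col1a2 was at 3452, 3835, 4755 and 5663 CPM, and Col3a1 at 6395, 6897, 7702 and 8389 CPM. All 3 were higher in each bin than in the one before it. The ratio of the outer bins was 1.56 [1.5 to 1.61] for Col1a1, 1.64 [1.59 to 1.70] for Col1a2 and 1.31 [1.28 to 1.35] for Col3a1. Basement membrane chains did not follow, with a ratio of 0.877 [0.797 to 0.963].

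In the Adamdec1-high cells the fibrillar ratio was 1.30 [1.28 to 1.31], with 1.30 in cells marked M and 1.31 in those marked F. Col1a1 was at 2770, 3105, 3207 and 3935 CPM over the 4 bins. The ratio of the outer bins was 1.42 for Col1a1, 1.47 for Col1a2, 1.17 for Col3a1 and 1.38 for Col5a1, all under 1.5-fold. The basement membrane ratio of these bins was 1.02. Clusters 2, 3 and 5 held only 5%, 4.5% and 8% of the 200 cells in the highest bin, so values inside them rest on few cells. Inside clusters 1, 3 and 5 the fibrillar ratio was smaller, at 1.14, 1.07 and 1.11. Inside cluster 2 it was 1.51, with 0.929 in cells marked M and 1.56 in those marked F. Col1a2 was above 1 inside all 4 clusters, between 1.19 and 1.76. Between whole clusters the direction was mixed. The fibrillar ratio was 0.892 [0.882 to 0.903] for cluster 5 over cluster 2, below 1 in both marks, and 1.12 for cluster 1 over cluster 3, although Amotl2 was higher in the first cluster of each pair.

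**Figure D4:**
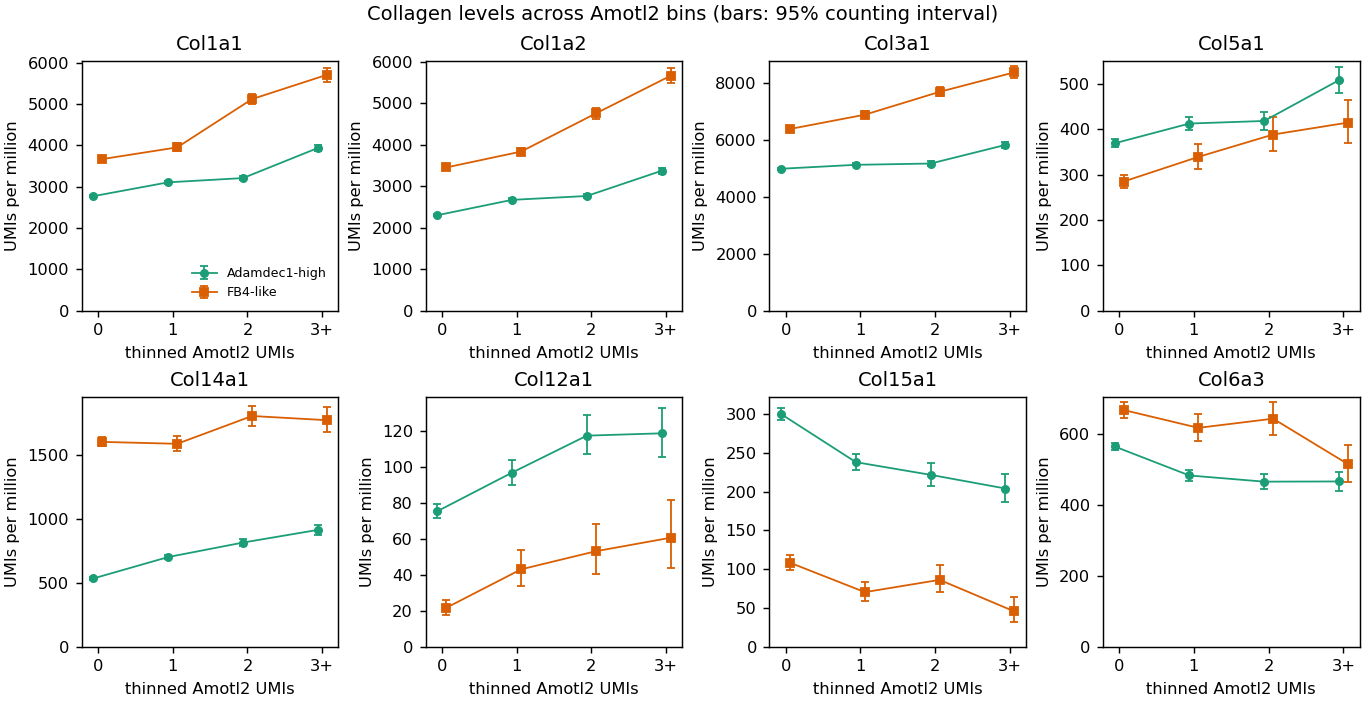
Level in CPM of 8 collagen chains in cells with 0, 1, 2 and 3 or more Amotl2 UMIs after thinning to 5000 UMIs, for Adamdec1-high and FB4-like cells, with exact 95% intervals. Col1a1 went from 3667 to 5705 in the FB4-like and from 2770 to 3935 in the Adamdec1-high cells.

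Single chains past 1.5-fold between the outer Amotl2 bins were counted against all genes as before. In the Adamdec1-high cells 10 of 29 chains were higher (background 7.21%) and 3 lower (8.6%). The median ratio was 1.17 over the chains and 1.01 over all genes. Among the FACIT chains, Col14a1 was at 1.71 [1.63 to 1.79], with 1.95 in cells marked M and 1.56 in those marked F, and Col12a1 at 1.58 [1.38 to 1.79], with 1.66 in both marks. Col22a1 was at 1.61 [1.04 to 2.41], with 2.73 in M and 1.09 in F, so that its call was not met in F. Of the beaded filament chains, Col6a5 was at 1.51 [1.40 to 1.62], with 1.54 in M and 1.53 in F, and Col6a6 at 4.76, with 9.76 and 3.08. The Col6a5 call held in 10 of 19 settings, with ratios from 0.673 to 2.92. The type VIII chains Col8a1 and Col8a2 were at 2.15 (2.83 in M, 1.66 in F) and 4.68 (6.2 in M, 3.81 in F). Of type IV, Col4a4 was at 3.28 (3.19 in M, 4.27 in F) and Col4a3 at 1.77 (2.65 in M, 1.37 in F), the latter under the fold in F. Col28a1 was at 3.07 (4.68 in M, 2.26 in F), but at 1.17 inside cluster 1, the 1 cluster with enough UMIs for a count. Of the lower chains, Col5a3 was at 0.645 [0.521 to 0.791], with 0.761 in M and 0.623 in F. Col6a4 was at 0.614 [0.299 to 1.13], with 0.150 in M and 0.977 in F, so that it was past the fold in M only. Col13a1 had 0 UMIs in the highest bin against 46 in the bin with 0. Col15a1 was at 0.680 and Col6a3 at 0.825.

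Fewer chains were past the fold inside single clusters, which also held fewer UMIs. Inside cluster 1, 4 of 25 chains were higher (background 5.48%) and 0 lower (3.29%). Inside cluster 2, 5 of 22 were higher (17.0%) and 2 lower (17.1%). Inside cluster 3, 4 of 22 were higher (22.7%) and 0 lower (14.3%), and inside cluster 5, 3 of 20 were higher (9.77%) and 1 lower (17.7%). The shares inside clusters 2, 3 and 5 were near or below the background except that of the higher chains in clusters 2 and 5, which rested on 5 and 3 chains. Col14a1 ran from 0.861 inside cluster 3 to 2.09 at most. Col8a1 was at 1.15 inside cluster 1, 7.61 inside cluster 2 and 2.76 inside cluster 5, and had no UMI in the highest bin of cluster 3. Inside cluster 1, Col8a2 was at 1.73, Col4a3 at 2.06 and Col4a4 at 1.89. Col22a1 was at 0.922 inside cluster 1, 2.77 inside cluster 2 and 1.66 inside cluster 5. Col6a4 was at 0.568 inside cluster 2, on 1 UMI in the highest bin. Col6a6 and Col13a1 had too few UMIs to be counted inside any cluster. Col5a3 was lower in the pool and above 1 inside 3 of the 4 clusters. Col12a1 and Col6a5 were above 1 inside 3 clusters and at 0.651 and 0.673 inside cluster 5. Between whole clusters, those with high Amotl2 (1 and 5) over those with low Amotl2 (2 and 3), 8 of 30 chains were higher (background 5.88%) and 5 lower (8.94%). Col14a1 was 1.72 times as high there, Col22a1 2.93 times, Col15a1 0.524 times, Col6a3 0.603 times and Col5a3 0.478 times. Clusters 2 and 5 were low in Fos, an immediate early gene that rises when tissue is dissociated, and clusters 1 and 3 high. Col14a1 was 2.08 times as high in cluster 5 as in cluster 2 and 1.55 times as high in cluster 1 as in cluster 3. Col15a1 was at 0.359 and 0.566 times and Col6a3 at 0.550 and 0.570 times in the same pairs, so these 3 chains kept their side within both levels of Fos. Col1a1 did not, at 0.958 and 1.21 times.

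In the FB4-like cells 5 of 22 chains were higher (background 12.2%) and 3 lower (13.6%) between the outer Amotl2 bins. The higher ones were Col4a3 at 4.66 [2.46 to 8.65], Col12a1 at 2.80 [1.93 to 4.01], Col4a4 at 2.62 [1.56 to 4.25], Col1a2 and Col1a1. In cells marked M and F these were 6.38 and 3.66 for Col4a3, 4.39 and 2.08 for Col12a1, 3.18 and 2.49 for Col4a4, 1.64 and 1.66 for Col1a2, and 1.62 and 1.55 for Col1a1, so each was past the fold in both. The Col1a1 and Col1a2 calls each held in 11 of 15 settings, with ratios down to 1.31 and 1.40 when cells were thinned to 2000 UMIs. The lower ones were Col15a1 at 0.420 [0.286 to 0.597], with 0.381 in M and 0.494 in F, Col27a1 with 1 UMI in the highest bin, a ratio of 0.160 [0.00396 to 0.939], and Col13a1 with none. The share of lower chains was at the background. Both chains of the Col4a3 and Col4a4 pair were thus past the fold in both sets, although above 1 inside only 2 of the 4 Adamdec1-high clusters, while Col4a1 had ratios of 1.17 and 0.790. In the Adamdec1-high cells the Col4a4 ratio turned to 0.545 when cells were thinned to 2000 UMIs. Col14a1, high throughout the FB4-like set, had a ratio of 1.11 there.

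**Figure D5:**
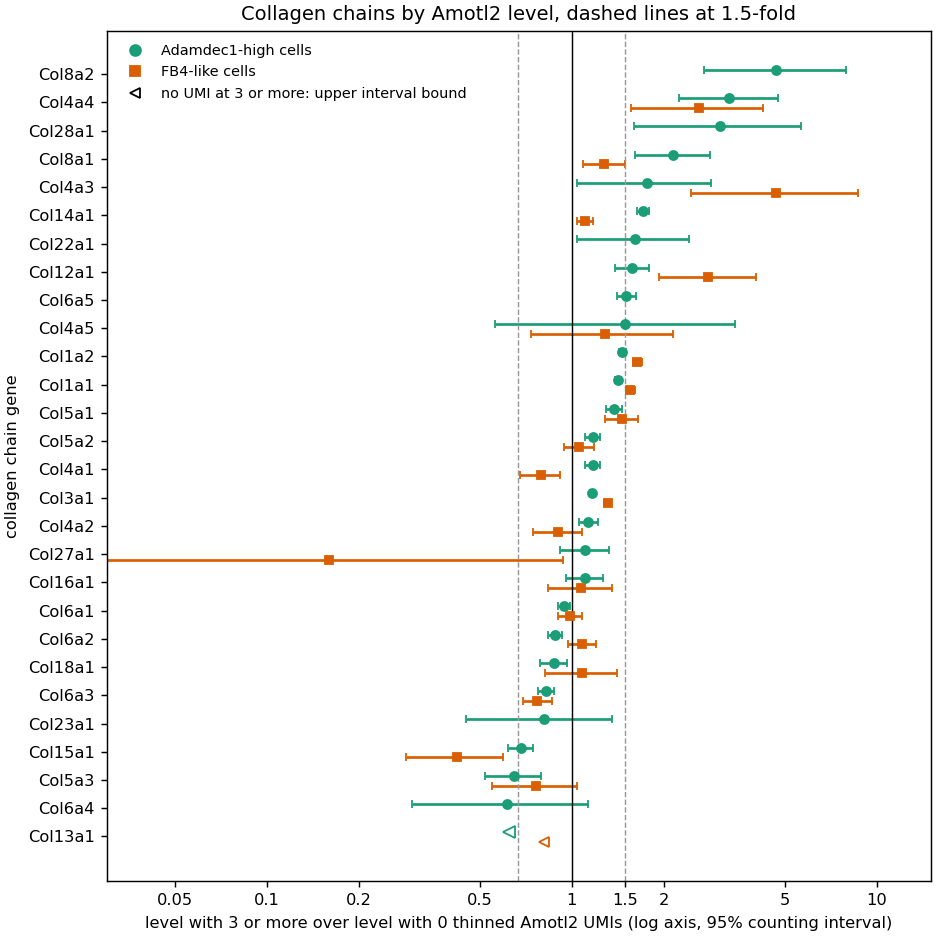
Ratio of each collagen chain in cells with 3 or more over cells with 0 Amotl2 UMIs (log axis), with exact 95% intervals, for Adamdec1-high and FB4-like cells. Dashed lines mark 1.5-fold in both directions, open triangles the upper interval bound where no UMI was seen in the highest bin, and the Col27a1 interval runs off the left edge. In the FB4-like cells Col1a1 and Col1a2 lay past the line at 1.56 and 1.64.

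A list of 35 genes for making, cutting and binding collagen was followed beside the chains. Serpinh1 encodes HSP47, the chaperone of collagen chains, and P4ha1 a subunit of the enzyme that hydroxylates their prolines. Serpinh1 was at 1710 CPM in the vFB3-like, 1421 in the FB4-like, 1370 in the Adamdec1-high and 1011 in the FB5-like cells. It was at 649 CPM in cluster 8 and 616 CPM in the SMC-like cells, the sets with the least collagen. P4ha1 was highest in the FB4-like cells at 133 CPM, beside 90.6 CPM in the Adamdec1-high and 59.0 CPM in the SMC-like cells. Against the Adamdec1-high cells, 1 of 33 genes was higher and 4 lower in each of the vFB3-like, FB4-like and FB5-like sets. Over all genes tested in these sets 4.31% to 8.94% were higher and 7.07% to 11.5% lower. In the SMC-like cells 2 of 33 were higher (background 7.71%) and 13 lower (9.38%). In cluster 8, 5 of 34 were higher (10.8%) and 7 lower (10.3%). Pcolce2, an enhancer of propeptide cleavage, was at 540 CPM in the FB4-like and 42.6 CPM in the Adamdec1-high cells.

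By Amotl2 level, 10 of 30 of these genes were higher (background 12.2%) and 0 lower (13.6%) in the FB4-like cells, and 5 of 33 were higher (7.21%) and 1 lower (8.6%) in the Adamdec1-high cells. Serpinh1 in the FB4-like cells was at 1219, 1457, 1805 and 2155 CPM from the lowest to the highest bin, a ratio of 1.77 [1.67 to 1.87]. Its ratio in the Adamdec1-high cells was 1.30. P4ha1 had ratios of 1.92 and 1.54 in these sets. The collagen receptors Itga1, at 3.87 [3.04 to 4.91] and 2.05 [1.86 to 2.24], Ddr1, at 2.29 and 2.05, Itga2, at 1.96 and 2.10, and Itga11, at 1.67 and 1.63, were past 1.5-fold in both. Inside cluster 1, which held most cells of the highest Adamdec1-high bin, none of P4ha1 (1.36), Itga1 (1.38), Ddr1 (1.46), Itga2 (0.982) and Itga11 (1.27) was past the fold, and the 1 processing gene that was, Mia3 at 1.55, was another one. Inside cluster 2, 8 of 31 processing genes were higher (background 17.0%) and 1 lower (17.1%), with Itga1 at 2.46, Itga11 at 2.05 and Ddr1 at 3.85. Inside cluster 3, 5 of 31 were higher (22.7%) and 1 lower (14.3%). Inside cluster 5, 2 of 28 were higher (9.77%) and 1 lower (17.7%). Itga2 was past the fold inside clusters 3 and 5, at 4.08 on 3 UMIs and 2.66, and Itga11 inside cluster 3, at 2.32. P4ha1 was past it inside no cluster. Colgalt2, which adds sugar to collagen, was the 1 lower gene in the Adamdec1-high cells, at 0.516 [0.218 to 1.05], and was at 1.72 [0.574 to 4.31] in the FB4-like cells.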

How the data were processed

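Per the labels and the methods of the study, sorted cells went through a 10x Chromium 3′ v3 kit, and reads were aligned to mm10 with Cell Ranger 3.0.2. The authors kept cells with 1000 to 6000 genes and at most 7% mitochondrial UMIs in Seurat (3.0.1 in the labels) and removed immune and endothelial cells. They excluded doublets at the sort and took the 6000-gene limit as a guard against droplet doublets. No doublet caller was run here, and 116 cells held both Xist and Y-linked UMIs. The authors scaled each cell to 10000 UMIs, added 1 and took the natural log, and these are the deposited values, from which whole UMI counts were read back (100% whole within 0.001). The design had assumed counts, and the recovered counts were used.

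Cells were clustered with Seurat 5.3.0 in R 4.3.3 on 1963 of 2000 variable genes, after 29 collagen and collagen-processing genes, YAP/TAZ targets and sex-linked genes had been taken out, in 30 principal components at resolution 0.5, with depth and mitochondrial share regressed out. A marker counted when at least 10% of a cluster's cells had it at 2 or more times the median level elsewhere, and at least 3 were needed for a name. The Adamdec1-high set took clusters with at least 50% of the highest cluster's Adamdec1 level that met no list or a villus list. Chains with at least 100 UMIs are named, and of the processing genes up to 5 per comparison plus Serpinh1 and P4ha1. A gene needed 30 UMIs over both sides of a ratio to be counted. Intervals are exact (Poisson, conditional binomial or Clopper-Pearson) from scipy 1.17.1. With 1 library no p-value was computed. On simulated data with known folds at 1.5 times the threshold, 96.0% of changed genes were called for the FB4-like set, 83.0% for the vFB3-like set and 100% for the Amotl2 bins in Adamdec1-high cells, while 0.686%, 7.13% and 7.44% of unchanged genes were called. The simulated counts carried counting error only, without spread between cells, so these shares are not error rates of the real calls. The members, lists and tests were chosen with earlier results of these data known. Gene positions are from GENCODE M21.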

Additional observations from a re-analysis of the deposited data

How the results depend on the processing

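No paired analysis was possible because only 1 library was analysed and no groups were compared. Only calls of chains with at least 100 UMIs were followed, so those of Col6a6 and Col24a1 were left out. For these 67 chain calls between cell sets, 67 had the same call at clustering resolutions 0.2 and 1, with the other denominator, with the free RNA bound subtracted and with a minimum of 1 UMI, and 66 with nothing regressed out, with collagen genes allowed in the clustering, with median-of-ratios size factors, with equal weight per cell and without the cells holding Xist and Y-linked UMIs. The same call held for 57 of 64 in columns marked M, 59 of 67 in columns marked F, 58 at 8000 to 14000 UMIs, 48 of 66 at most 5% mitochondrial UMIs and 61 of 61 with 100 UMIs. The planned marker gates changed most, with 27 of 63 calls kept. There 5 markers seen in most cells put 1524 cells in FB5-like and 615 in cluster 8, and 517 in Adamdec1-high. Without these 5 markers, an alternative chosen after seeing the data, 55 of 67 calls held and none turned. Under the planned gates the chains past 2-fold numbered 2 in vFB3-like (main 10), 8 in FB5-like (17), 7 in SMC-like (13) and 4 in cluster 8 (15), and the processing genes 14 (42). At most 5% mitochondrial UMIs left 5 in SMC-like. The FB4-like fibrillar ratio of 1.35 was 1.53 under the gates, 1.37 with the reduced gates, 1.36 in M, 1.26 at most 5% mitochondrial UMIs, 1.29 at 8000 to 14000 UMIs, 1.48 with median-of-ratios, 1.34 with equal weight and 1.38 with free RNA subtracted.

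Ratios that turned under the planned gates were, in FB5-like, Col1a1 1.12, Col3a1 1.03, Col4a3 2.31, Col6a5 1.41, Col15a1 1.07 and Col28a1 1.57, and, in cluster 8, Col1a1 1.10, Col1a2 1.14, Col4a4 1.47, Col5a1 1.02, Col6a1 1.01, Col6a3 1.10, Col6a5 1.22, Col8a1 0.527, Col12a1 1.29, Col16a1 1.13 and Col27a1 1.24. Others that turned were Col4a4 1.07 in cluster 8 (F), Col12a1 1.15 in cluster 8 (8000 to 14000 UMIs) and Col8a1 0.710 in SMC-like (at most 5% mitochondrial UMIs). By Amotl2 level in Adamdec1-high cells, Col4a4 was 0.545 when thinned to 2000 UMIs, Col22a1 0.922 inside cluster 1, Col5a3 1.09 inside clusters 2 and 3 and 1.80 inside cluster 5, Col14a1 0.861 inside cluster 3, and Col6a5 0.673 and Col12a1 0.651 inside cluster 5. Apart from the gates, whose wide markers changed the sets, the cause was not tested.

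By Amotl2 level in Adamdec1-high cells, the chains past 1.5-fold (main 13) numbered 8 in F, 4 under the gates and 4, 7, 4 and 4 inside clusters 1, 2, 3 and 5. The processing genes (main 6) numbered 11 when thinned to 2000 UMIs, 13 in M, 10 with equal weight, 1 inside cluster 1 and 3 inside cluster 5. The fibrillar ratio of 1.30 was 1.49 when thinned to 2000 UMIs, 1.27 with cells ranked by unthinned Amotl2 level, 1.18 for 2 or more UMIs, 1.23 at most 5% mitochondrial UMIs, 1.27 with the other denominator, 1.28 with median-of-ratios, 1.32 with equal weight, 1.23 and 1.28 under the planned and reduced gates, and 1.14, 1.51, 1.07 and 1.11 inside clusters 1, 2, 3 and 5. In FB4-like cells the chains past the fold (main 8) numbered 4 at 8000 to 14000 UMIs, 4 with 100 UMIs and 13 with 1 UMI. Of the named chain calls by Amotl2 level, thinning to 2000 UMIs kept 7 of 12 in Adamdec1-high and 3 of 8 in FB4-like cells, and 2 or more UMIs kept 10 of 12 and 5 of 8. Inside clusters 1, 2, 3 and 5, 3 of 10, 4 of 7, 4 of 7 and 2 of 6 held. The fibrillar ratio of 1.44 was 1.23 when thinned to 2000 UMIs, 1.35 for 2 or more UMIs, 1.48 in M, 1.41 at most 5% mitochondrial UMIs, 1.37 at 8000 to 14000 UMIs, 1.40 with the other denominator, 1.40 with median-of-ratios, 1.47 with equal weight and 1.34 and 1.38 under the gates. All these fibrillar ratios lay above 1, unlike that of cluster 5 over cluster 2, which was 0.892. With 1 library, only counting error could be given, and the spread between mice is unknown. Some levels also moved with the depth of the cells kept, as those of Col1a1 and Col8a1 did in the vFB3-like cells.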
